A study of Oryctolagus cuniculus with 12 samples.

Results

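Gene expression in the rabbit basilar artery 5 days after experimental subarachnoid hemorrhage was compared with that in control basilar arteries. The comparison used the 3 arrays whose source names gave day 5 and the 3 that gave control, 6 of the 12 arrays in the series. The control samples were described as normal and, in the series text, as day 0. The day 5 samples carried the label SAH, for subarachnoid hemorrhage, and the other 6 arrays came from days 3 and 7. Total RNA of each sample was labelled with the dye Cy3 and hybridised to a single-colour Agilent array. Strain, sex and age of the rabbits and the way the hemorrhage was made are not given in the sources used here. The labels did not say whether the samples of a group came from separate animals. The p-values therefore rest on a spread between arrays that may be technical only.

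The basilar artery runs along the brain stem inside the fluid-filled subarachnoid space, so that blood released there clots around its outer wall. Its wall is mostly contractile smooth muscle, lined by endothelium and wrapped in a thin fibroblast layer that borders the leptomeninges. In the days after a hemorrhage red cells break down, hemoglobin is taken up by macrophages, and cerebral arteries can narrow for days, a state called delayed vasospasm. Heme is split by heme oxygenase, free hemoglobin is bound by haptoglobin and iron is stored in ferritin.

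Levels are given on a log2 scale on which 0 is the 75th percentile of the signal of each array, so that a difference of 1 is a doubling. Where several probes of a gene were tested, the one with the highest mean over the 6 arrays stood for it. It was called changed where limma, fitted over all 12 arrays, gave a Benjamini-Hochberg adjusted p below 0.05 over all tested probes. A spot counted as above background where the scanner software marked it so. The day 5 arrays had 62.3 to 64.0% of their spots above background and the controls 50.1 to 61.9%. The lowest of these was control 2, which also had 169 outlier spots against 1 to 16 on the other arrays, and the counts of all called genes and probes, and those of lists that moved, are given without it as well. To check the tissue label, its markers were read: 28 contractile smooth muscle genes passed the filter, and ACTA2, the smooth muscle actin, had a level of 7.62 ± 0.23 (SD, n = 3) in controls. The single probe for GFAP, the astrocyte filament protein, was above background on no control or day 5 array. Other neural and glial markers were detected: 5 of 12 on the array were tested, and S100B, CSPG5 and CLDN11 were above background on all 3 controls. The summed linear signal in controls was 4.44 to 6.22 for these 5 and 189 to 253 for 5 skeletal muscle markers. For 18 fibroblast and leptomeningeal markers it was 2069 to 3365. The check therefore does not exclude neighbouring tissue.

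At day 5, 165 of the 7231 genes tested (2.28%) were called, 149 higher (2.06%) and 16 lower (0.221%). Among the 25932 probes 541 were called (2.09%), 478 of them higher. The median change over all genes was 0.02 on the log2 scale, and 52.9% of the changes were positive. Of the called genes 136 had changed over 2-fold, 124 upward and 12 downward, and 7 had changed over 8-fold. The arrays of the 2 groups did not overlap for any of the 165 called genes, nor for 1236 of all genes (17.1%), 738 of them higher (10.2%) and 498 lower (6.89%). Each of the 3 slides carried 1 array of every group. Where the groups do not overlap, the sign must be the same on all 3 slides, so that sign adds no information. Every group took the same place on each slide, so that place and group cannot be told apart. Without control 2 the count was 117 genes, 102 higher and 15 lower, 97 of them among the 165, and it was 356 probes, 312 of them higher. It was lowest, 87, without day 5 replicate 1 and highest, 224, without control replicate 3. With the 6 arrays fitted alone it was 72.

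**Figure D1:**
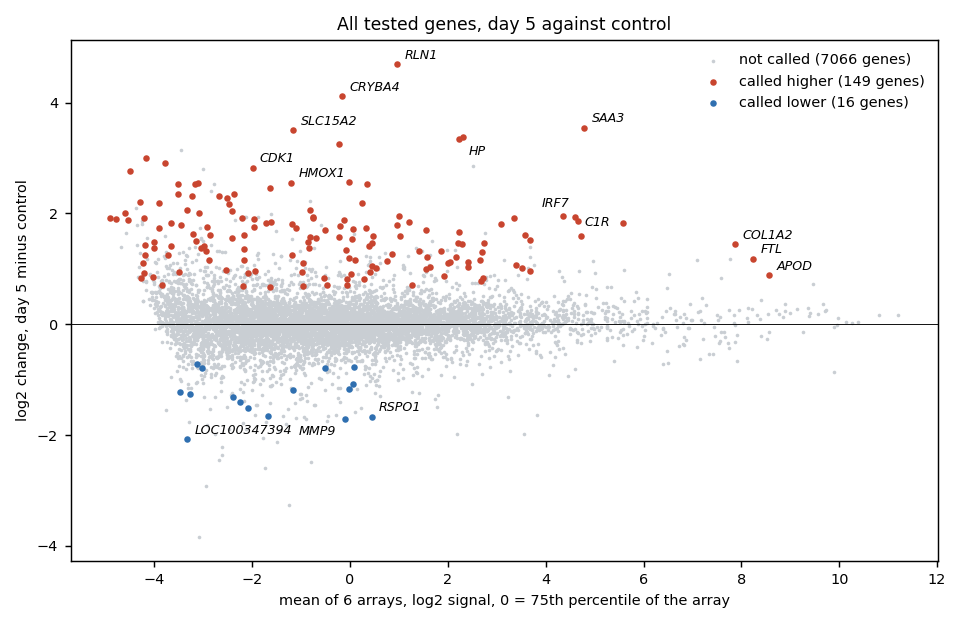
Each point is 1 of 7231 tested genes, with the mean level of the 6 arrays on the x axis (log2 signal, 0 at the 75th percentile of an array) and the log2 change from control to day 5 on the y axis. The 149 genes called higher (red) lie above the band of uncalled genes (grey) at all levels, and the 16 called lower (blue) lie below it at low to middle levels.

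Detection was uneven between the groups, and the filter admitted a gene through either. Of the tested genes 5859 were above background on all 6 arrays, 1341 passed through the day 5 arrays alone and 31 through the controls alone. Among the 5859 genes 99 were called (1.69%), 88 higher and 11 lower. Of the 1341 genes that passed through day 5 alone 61 were called higher and 3 lower. This route favours genes that are higher at day 5, so it is stated for list members that passed by it. For 27 called rises no control array was above background. For these a lower bound is given, the day 5 mean against the dimmest signal that still counted as above background on the control arrays.

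Acute phase genes gave some of the largest rises. These encode plasma proteins that the liver, and inflamed tissue, releases in inflammation. Of 14 acute phase genes on the array 7 were tested and 4 rose, all 4 above background on all 6 arrays, where 1.5% of genes were called higher. SAA3, a serum amyloid A of inflamed tissues that the array lists as a pseudogene, had levels of 2.69, 2.05 and 4.30 in control replicates 1 to 3 and of 6.58, 6.0 and 7.11 in the day 5 replicates. Every day 5 array was far above the highest control, control 3. The rise was 3.55 ± 0.52 (SE, log2), 11.7-fold, with a limma adjusted p of 0.0047. A related transcript, LOC100009168, listed as serum amyloid protein A, had control levels of 0.16, -0.14 and 1.86 and day 5 levels of 3.91, 3.67 and 4.45. It was 10.5-fold higher (adjusted p 0.00416) at its brighter probe, and its other probe rose by 2.40 without passing the test (adjusted p 0.0736).

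The serum amyloid probes are printed because they share much of their sequence, so that signal of one transcript may be read by the probe of the other. Of 60 bases in each, 47 overlap, and within the overlap 42 match and 5 differ, the latter in capitals. The haptoglobin probe is given with them.
SAA3: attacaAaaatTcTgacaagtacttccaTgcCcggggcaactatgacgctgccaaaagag
LOC100009168: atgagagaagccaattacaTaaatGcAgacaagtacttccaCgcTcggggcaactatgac
HP: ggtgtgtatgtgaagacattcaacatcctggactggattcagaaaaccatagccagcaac

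HP, haptoglobin, the plasma protein that binds free hemoglobin, had levels of -0.14, -0.04 and 1.87 in controls and of 4.88, 3.21 and 3.64 at day 5. Control 3 was again the highest control, and every day 5 array lay above it. The rise was 10.2-fold (3.35 ± 0.55, limma adjusted p 0.00914), with 3.34 at its other probe. CP, ceruloplasmin, a copper protein that oxidises iron, rose 3.84-fold from 3.62, 3.39 and 3.89 to 5.73, 5.69 and 5.30 (adjusted p 0.00147). All 4 calls held without each of the 12 arrays in turn. The other tested acute phase genes were FGB, CRP and ITIH4, with changes of 0.21, -0.25 and -0.32, none of them called. HP alone lost its call with the 6 arrays alone (adjusted p 0.063). The median of the 7 tested members was 1.94, against 0.02 for all genes, and it depended on which dim members were admitted: it was -0.02 with no filter and 3.35 over members above background in both groups.

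**Figure D2:**
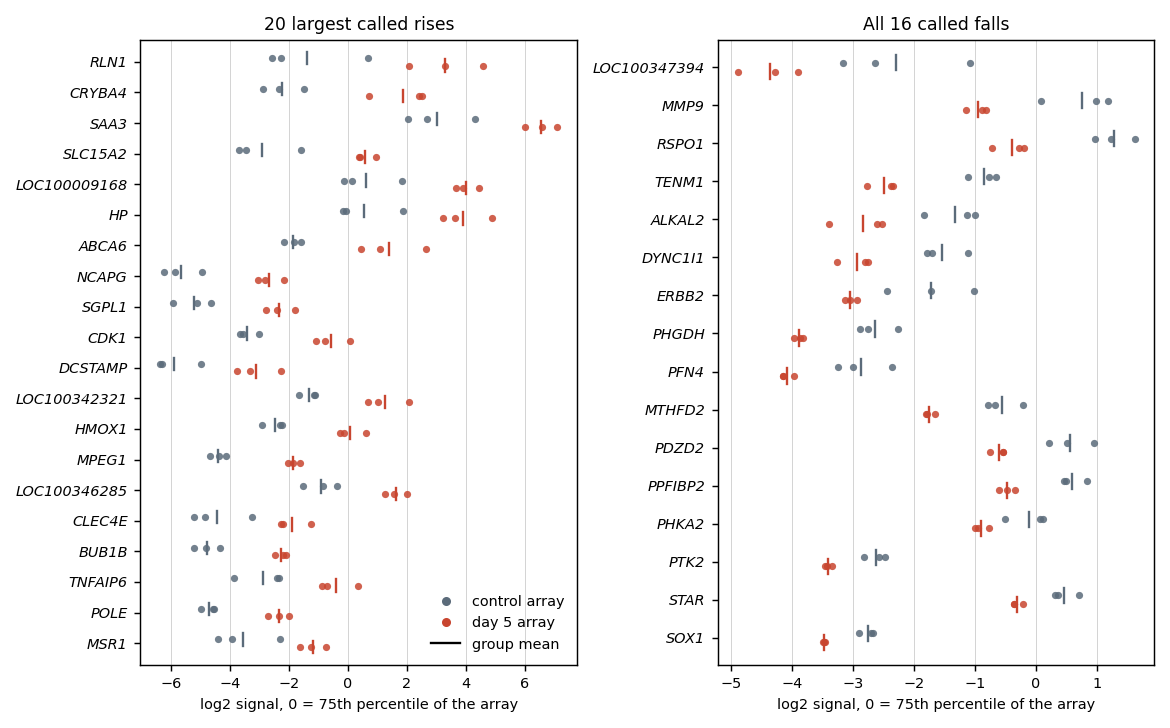
Levels on each control (grey) and day 5 (red) array, with group means as vertical bars, for the 20 called genes that rose most and for all 16 that fell. The x axis is log2 signal with 0 at the 75th percentile of the array, and the points of the 2 groups do not overlap for any gene shown.

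Genes of heme and iron handling rose in part. HMOX1, heme oxygenase 1, which splits heme into iron, carbon monoxide and biliverdin, was near background in controls, at -2.22, -2.92 and -2.28, with 2 of the 3 control arrays above it. At day 5 it stood at -0.13, -0.25 and 0.62, above every control. This was a 5.89-fold rise (2.56 ± 0.37, limma adjusted p 0.00433) that was called in 24 of the 25 processing settings; the filter on both groups left it out. It was read by 1 probe, which the array describes as heme oxygenase 1.
HMOX1: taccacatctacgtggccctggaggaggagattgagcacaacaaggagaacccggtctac

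FTL, the light chain of ferritin, rose 2.27-fold from 7.80, 7.14 and 8.03 to 8.90, 8.60 and 9.01 (limma adjusted p 0.0205). GCLM, a subunit of the enzyme that limits glutathione synthesis, rose 2.14-fold at 5 of 5 probes (adjusted p 0.0179). The FTL call was lost without day 5 replicate 1 or 3 (adjusted p 0.078 and 0.071), and the GCLM call without control 1, control 2, day 5 replicate 1 or 2 (0.055 to 0.069). With CP, 4 of the 19 tested heme, iron and oxidative stress genes rose and none fell, with a median of 0.22. Of the 4 rises 3 were above background on all 6 arrays, where 1.5% of genes were called higher, and HMOX1 passed through day 5 alone. The list's count was 3 without control 2, and 2 without day 5 replicate 1 and under normexp background correction. TFRC, the transferrin receptor, had a change of -0.79 (adjusted p 0.18), BLVRA, biliverdin reductase, one of 0.84 (0.24), and SOD1, superoxide dismutase, one of -0.08. Transcripts of red cell precursors were measured at the same time: the summed linear signal of the 3 erythroid markers was 101 to 162 in controls and 171 to 470 at day 5. HBB2, a beta globin, had a change of 1.16 and HBA, an alpha globin, one of 0.98, neither of them called, and the part of blood RNA in these results was not tested.

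Macrophage markers rose at day 5. Of 14 markers on the array 13 were tested, and 9 rose. Of the 9 tested markers above background on all 6 arrays 6 rose, and of the 4 that passed through day 5 alone 3 did. The share called higher was 2.06% of all genes tested and 1.5% of those above background on all 6 arrays. CD68, a lysosomal protein of macrophages, had levels of -0.87, -1.32 and -1.03 in controls and of 0.89, 0.48 and 1.06 at day 5, with a gap of over 1 unit between the groups. It rose 3.69-fold (1.88 ± 0.19, limma adjusted p 0.000917). CD14, a coreceptor for bacterial lipopolysaccharide, rose 3.51-fold from 2.57, 1.86 and 2.11 to 4.01, 3.76 and 4.22 (adjusted p 0.00174).

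MRC1, the mannose receptor, rose 3.57-fold at 3 of 3 probes (limma adjusted p 0.00837), and CYBB, the catalytic subunit of the phagocyte oxidase, rose 2.98-fold (adjusted p 0.00974). MPEG1, a pore-forming protein of phagocytes, was above background on no control array and on all 3 at day 5, where it was at least 3.29-fold higher (adjusted p 0.00122, 5 of 5 probes). MSR1, a scavenger receptor, rose 5.07-fold and CD86, a costimulatory ligand, 3.1-fold, each with 1 control array above background (adjusted p 0.0236 and 0.00535). ITGB2, the beta chain of the leukocyte integrins, rose by 1.15 (adjusted p 0.0412), a call made in 11 of 25 processing settings. The alpha chain ITGAM had a change of -0.13, and C1QC and CTSS had changes of 1.35 and 1.25, none of these called. The median of the 13 tested markers was 1.63.

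The summed linear signal of the macrophage markers was 14.7 to 22.5 in controls and 46.3 to 66.9 at day 5. In whole tissue more macrophages and more RNA per macrophage cannot be told apart. The list's count of rises was 6 without control replicate 2, day 5 replicate 1 or day 5 replicate 3, and 6 with the 6 arrays alone, with no filter, or with the filter on both groups. The calls on CD68, CD14, MRC1, CYBB and MPEG1 held without each array. That on MSR1 was lost without control 2 or 3 or day 5 replicate 1 or 3 (adjusted p 0.058 to 0.085).

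The tested markers of neutrophils and lymphocytes moved less. Of 10 tested neutrophil markers NCF4, a cytosolic oxidase subunit that macrophages also express, rose 2.33-fold (limma adjusted p 0.0127) and lost its call without day 5 replicate 3 (0.052), while MMP9 fell. S100A8 and S100A9, calcium-binding proteins abundant in neutrophils, had changes of 0.19 and -0.11, and MPO, myeloperoxidase, one of -0.07. The summed signal of the neutrophil markers was 7.33 to 9.17 in controls and 8.37 to 10.5 at day 5. Of 16 lymphocyte markers on the array 7 were tested and none was called, where 2.28% of all genes were. Among the untested ones CD2, CD79B, PRF1 and ZAP70 were above background on no control array and on at most 2 day 5 arrays. LCK was above it on at most 2 arrays of each group and CD28 on none. The list therefore says little about lymphocytes. CD3D, a chain of the T cell receptor complex, had a change of 0.53, and CD5, a T cell surface receptor, one of 1.05 (limma adjusted p 0.558). Its day 5 levels were -3.19, -1.99 and 0.13 against control levels of -2.82, -2.74 and -2.65, so that 1 day 5 array lay below every control and the other two above. LOC100346285, described as similar to granzyme A, a protease of cytotoxic lymphocytes, rose 5.79-fold at both probes from -1.52, -0.84 and -0.36 to 1.28, 1.57 and 2.02 (adjusted p 0.00184).

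Several other leukocyte genes outside the lists rose, and they are named here after their values were seen. LCP1, an actin-bundling protein of blood cells, rose by 1.91 (limma adjusted p 0.00116), although the array describes its probe differently from RefSeq. AOAH, an enzyme that inactivates lipopolysaccharide, rose by 1.95, VSIG4, a complement receptor of resident macrophages, by 1.70, and PTPRC, the pan-leukocyte phosphatase CD45, by 1.37, called in 25, 21 and 16 of the 25 settings. CLEC4E, a macrophage lectin receptor, rose 5.78-fold at 5 of 5 probes, with 1 control array above background. Its call was lost without control 1, control 2, any day 5 array, or day 7 replicate 1 or 2 (adjusted p 0.051 to 0.11).

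Several complement genes rose, among them components of the start, the centre and the end of the cascade. Of 13 tested members 6 rose and none fell, and 5 of the 6 were among the 10 above background on all 6 arrays. The share called higher among all such genes was 1.5%. C1R, the protease that starts the classical pathway, had levels of 4.0, 3.48 and 3.68 in controls and of 5.56, 5.51 and 5.69 at day 5. The day 5 arrays lay within 0.2 of each other, well above all controls. The rise of 3.64-fold (1.86 ± 0.16) had the smallest adjusted p of the named genes (limma, 0.000574) and was seen at 4 of 4 probes, although the array describes the transcript as a mannan-binding lectin protease.

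C1S, the protease that C1R activates, rose 2.19-fold from 1.83, 1.37 and 1.26 to 2.73, 2.59 and 2.53 (limma adjusted p 0.00781). C1QB, a chain of the recognition subunit C1q, rose 3.26-fold (adjusted p 0.0197), and C3, the central component, rose by 1.78 (adjusted p 0.0427), a call made in 12 of the 25 settings. Of the terminal components that build the membrane attack complex, C7 rose 2.86-fold from 3.08, 2.64 and 3.07 to 4.56, 4.50 and 4.28 (adjusted p 0.00484). The RefSeq name C7 differs from the array's description of this transcript. C6, above background on no control array, was at least 1.74-fold higher (adjusted p 0.00941, 1 of 2 probes). C9, another terminal component, had a change of 0.04 and CD59, which blocks the attack complex on host cells, one of -0.42, and neither was called. The probes for C8B and C8G, chains of a further terminal component, were above background on no control or day 5 array. The median of the tested members was 1.13, or 0.98 with C6 at its bound. The C1QB call was lost without control 2, day 5 replicate 1 or day 5 replicate 3 (adjusted p 0.069, 0.059 and 0.073), and the list's count was 4 without any one of these. It was 3 under normexp, 4 with no filter and 4 with the 6 arrays alone.

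Interferon-induced genes were higher at day 5 in every tested member, by point estimate. These genes are switched on by type I interferon and limit viral replication. Of 13 tested members 7 rose and none fell, 5 of the 7 above background on all 6 arrays and 2 admitted through day 5 alone. The share called higher was 2.06% of all genes tested and 1.5% of those above background on all 6 arrays. No member's day 5 and control arrays overlapped, against 10.2% of all genes higher without overlap. IRF7, the transcription factor that amplifies interferon production, had control levels of 3.40, 3.31 and 3.40 and day 5 levels of 5.05, 4.89 and 6.06. Day 5 replicate 3 was the highest. The rise was 3.89-fold (1.96 ± 0.32, limma adjusted p 0.00886).

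RIGI, a cytosolic sensor of viral RNA, rose 3.3-fold from -0.83, -0.61 and -0.93 to 0.82, 0.99 and 0.99 (limma adjusted p 0.00176). IFIH1, another RNA sensor, rose 2.33-fold at 1 of 2 probes (adjusted p 0.0191). OASL, an RNA-binding antiviral protein with 1 control array above background, rose by 2.05 (adjusted p 0.0453), IFI44 by 1.38 (0.0463) and PARP14 by 1.38 (0.0468), the last pair called in 9 and 8 of the 25 settings. The RefSeq name IFI44 differs from the array's description of that transcript. XAF1, IFIT3 and USP18 had changes of 1.94, 1.94 and 1.79 that did not pass (adjusted p 0.081, 0.051 and 0.054). LOC100342321, described as similar to an interferon-induced tetratricopeptide repeat protein and outside the list, rose 5.89-fold (adjusted p 0.0319). It lost its call without any control array, or without day 5 replicate 1 or 3 (adjusted p 0.070 to 0.10).

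The number of called interferon genes moved with single arrays, while the median, 1.46 over all arrays, was 1.3 to 1.72 without single arrays and 0.85 with normexp. The number was 3 without control replicate 2 or day 5 replicate 3. It was 4 without control 1, control 3, day 3 replicate 1, day 5 replicate 1 or 2, or any day 7 array, and 9 without day 3 replicate 2. With the slide as a block it was 4, with normexp 2 and with no filter 3. The calls on IRF7 and RIGI held without each array, while that on IFIH1 was lost without control 1 or 2 or day 5 replicate 3 (adjusted p 0.052 to 0.071) and that on OASL without any 1 array other than day 3 replicate 2 or 3 (0.057 to 0.13).

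Antigen presentation genes had a median change of 0.75, with 13 of 14 positive, but CD86 was the only member called. The list's within-slide medians ran from 0.24 on slide 1 to 1.60 on slide 3. Among 17 tested cytokines and chemokines IL1RN, the interleukin-1 receptor antagonist, was the only one called. It rose 2.89-fold from -0.76, -0.85 and -0.57 to 0.34, 0.55 and 1.52 (limma adjusted p 0.0161, 2 of 2 probes) and lost the call without control 1 or 2 (0.051 and 0.057). The array lists its probes under the receptor IL1R1. IL1B, the main agonist, had levels of -0.84, 1.17 and 0.90 in controls and of -1.29, -1.75 and -1.0 at day 5, with a change of -1.75 that did not pass (adjusted p 0.23). TNF had a change of 0.05, and CCL2, the monocyte chemokine, one of 1.02 (0.329). The probes for IL6 and for the adhesion molecule ICAM1 did not pass the filter.

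CXCL8, the neutrophil chemokine, depended on the probe, which was noticed after its values were seen. Its brightest tested probe had a change of 0.37 (limma adjusted p 0.656). Another of its 6 tested probes, above background on no control array, was at least 1.51-fold higher at day 5 (adjusted p 0.0031), and a further probe had a change of 1.5 (0.0183). Of 20 tested cytokine receptor and signalling genes 3 rose, all 3 above background on all 6 arrays, where 1.5% of genes were called higher. TLR4, the receptor for lipopolysaccharide, rose 2.75-fold from -0.09, -0.72 and -0.03 to 1.16, 1.08 and 1.31 (adjusted p 0.00428). IL6ST, the shared signalling chain of the interleukin-6 family, rose 1.71-fold (adjusted p 0.031) and lost its call without control 1, control 2, day 5 replicate 1, day 5 replicate 2 or day 7 replicate 1 (0.051 to 0.12).

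TNFAIP6, a hyaluronan-binding protein induced by tumor necrosis factor, rose 5.48-fold at 6 of 7 probes. Its control levels were -3.85, -2.40 and -2.34 and its day 5 levels 0.34, -0.87 and -0.71 (limma adjusted p 0.0217). The call was lost without control 1 or day 5 replicate 1 (adjusted p 0.059 and 0.083).

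Lysosomal proteases rose beside the macrophage markers, whose summed level is given above; the part of these cells in this result was not tested. Of 17 tested lysosomal genes 3 rose, all 3 above background on all 6 arrays, where 1.5% of genes were called higher. Positive changes were seen in 16 of the 17, with a median of 0.62. CTSH, cathepsin H, rose 2.75-fold from 2.10, 1.79 and 2.11 to 3.37, 3.28 and 3.74 (limma adjusted p 0.00196). CTSD, cathepsin D, rose 3.02-fold (adjusted p 0.00623) and CTSB, cathepsin B, 2.18-fold (0.0397). The first 2 calls held without each array. That on CTSB was lost without control 2, control 3, day 3 replicate 1 or any day 5 or day 7 array (adjusted p 0.055 to 0.12), and 1 of the 3 genes was called with the 6 arrays alone.

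Some cell division genes were called higher, most of them admitted through the day 5 arrays alone. Of 48 cell cycle genes on the array 36 were tested, 18 of them through the day 5 arrays alone. In all 10 were called higher and none lower, but 9 of the 10 had passed through day 5 alone. By that route 61 of 1341 genes in all were called higher. Among the 18 above background on all 6 arrays CKS2, a binding partner of cyclin-dependent kinases, was the only one called. CDK1, whose kinase activity takes cells into mitosis, had control levels of -3.66, -3.55 and -2.99, 2 of the 3 above background. At day 5 it stood at -1.06, -0.76 and 0.09, all above every control. The rise was 7.1-fold (2.83 ± 0.30, limma adjusted p 0.00108) and was seen at 3 of 3 probes, of which the brightest is printed.
CDK1: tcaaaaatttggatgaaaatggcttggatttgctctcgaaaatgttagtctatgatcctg

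NDC80, a kinetochore protein, rose from -3.76, -3.61 and -3.61 to -1.46, -1.44 and -1.24 (2.28 ± 0.22, limma adjusted p 0.000906, 2 of 3 controls above background). UBE2C, which tags cyclins for destruction, rose 5-fold at 5 of 5 probes with 1 control array above background (adjusted p 0.00159). NCAPG, a condensin subunit, and BUB1B, a spindle checkpoint kinase, were above background on no control array and at least 1.85-fold and 2.48-fold higher (adjusted p 0.000917 for each). MKI67, the proliferation marker Ki-67, rose by 1.91 (adjusted p 0.00428). CCND1, the G1 cyclin, which was above background throughout, had a change of -0.60 (adjusted p 0.17). The median of the tested members was 0.79, 0.47 with bounds in place of fitted values, and 0.28 over the 18 genes above background on all 6 arrays. The count ran from 7 without day 5 replicate 3 to 11 without control 2, was 6 under normexp, and was 1 when both groups had to be above background.

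Of 27 tested DNA replication genes 4 rose, and the median was 0.15. Of these rises 3 had passed through day 5 alone, a route by which 61 of 1341 genes in all were called higher. Among the 19 members above background on all 6 arrays 1 rose, and their median was 0.10. The share called higher was 2.06% of all genes tested and 1.5% of those above background on all 6 arrays. POLE, the catalytic subunit of DNA polymerase epsilon, rose by a factor of at least 2.34 at day 5 (limma adjusted p 0.00124, 4 of 5 probes). MCM4, part of the replicative helicase, rose at least 2-fold (adjusted p 0.00338), and both calls held without each array but not under normexp (0.13 and 0.063). TK1, thymidine kinase, rose 1.9-fold (adjusted p 0.0328) and RRM2, a ribonucleotide reductase subunit, by 1.25 (0.035) with no bound above 1. The TK1 call was lost without control 1, control 3, any day 5 array, or day 7 replicate 1 or 2 (adjusted p 0.050 to 0.11). That on RRM2 was lost without control 1, control 2, day 5 replicate 1, day 5 replicate 2 or day 7 replicate 2 (0.051 to 0.13), and with the slide as a block (0.053). The list's count was 3 without control 2 and fell to 2 without control 1, day 5 replicate 1, day 5 replicate 2 or day 7 replicate 2. It was 1 when both groups had to be above background and 0 under normexp.

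**Figure D3:**
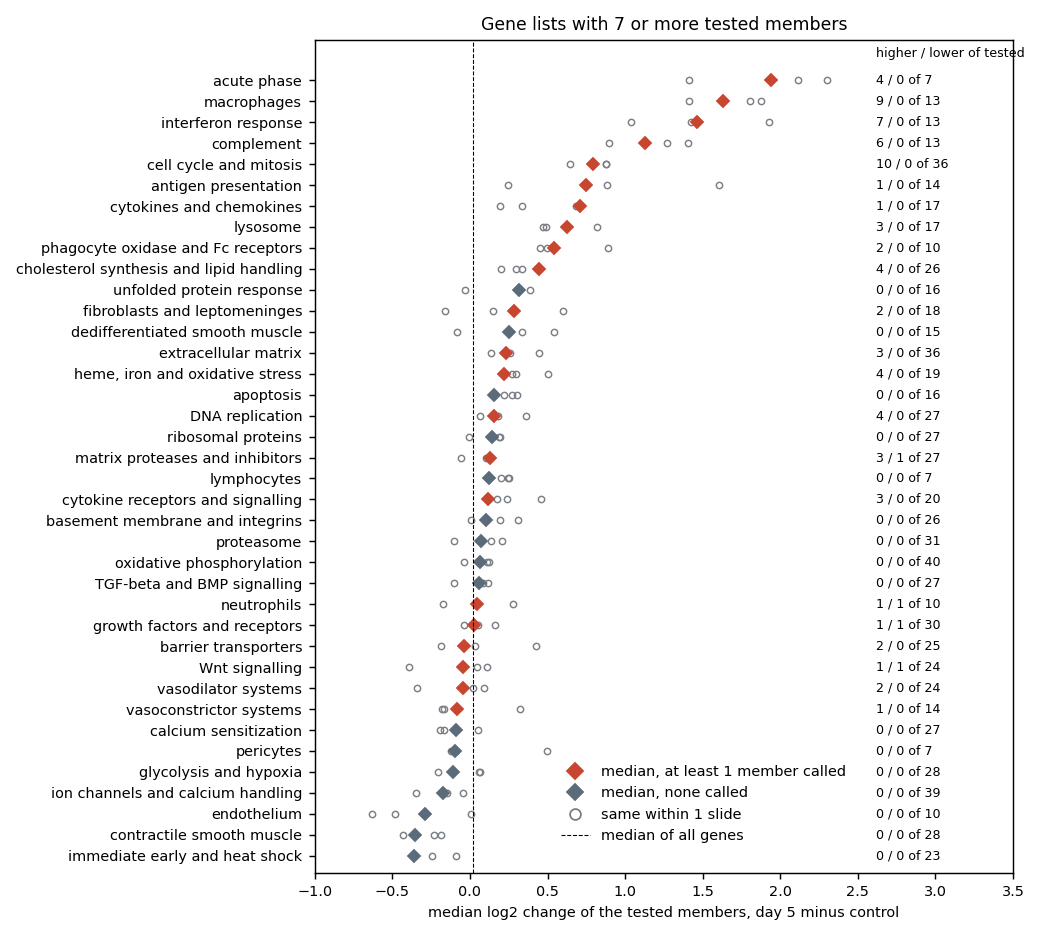
Median log2 change from control to day 5 of the tested members of each gene list with 7 or more (diamonds, red where at least 1 member was called), the same within each of the 3 slides (open circles), and the median of all genes (dashed line). Numbers on the right give members called higher and lower and members tested, and the acute phase, macrophage, interferon and complement lists lie farthest to the right.

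Some matrix genes rose, among them the chains of collagen I. Of 36 tested extracellular matrix genes 3 rose and none fell, with a median of 0.23. All 3 were above background on all 6 arrays, where 1.5% of genes were called higher. COL1A2, a chain of collagen I, rose 2.73-fold at 5 of 5 probes from 7.14, 7.52 and 6.79 to 8.87, 8.54 and 8.38 (limma adjusted p 0.00565). COL1A1, its partner chain, rose 3.07-fold from 2.97, 3.17 and 2.14 to 4.46, 4.24 and 4.43 (adjusted p 0.00409). TGFBI, a matrix protein induced by transforming growth factor beta, rose 2.55-fold (adjusted p 0.00493). The 3 calls held without each array, the list's count was 4 without control 2, and the call on COL1A1 was lost with the 6 arrays alone (0.052).

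Other fibrillar and provisional matrix genes were not called. COL3A1, collagen III, had a change of 0.83 (limma adjusted p 0.095), FN1, fibronectin, one of 0.67 (0.48), LUM, lumican, one of 0.86 (0.101) and TNC, tenascin C, one of 0.37 (0.637). MFAP5, a microfibril protein, had a change of -1.78 (0.11). None of 26 tested basement membrane and integrin genes was called, and BMP4 among 27 tested transforming growth factor beta and bone morphogenetic protein genes had a change of -0.81 just short of the threshold (0.0513). Of 18 tested fibroblast and leptomeningeal markers the 2 collagen chains were the only ones called. The summed signal of that list overlapped between the groups, at 2069 to 3365 in controls and 2419 to 2704 at day 5.

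Proteases and their inhibitors moved in both directions. TIMP1, the inhibitor of matrix metalloproteinases, had levels of 3.68, 3.99 and 4.08 in controls and of 5.84, 5.19 and 5.49 at day 5, a 3.01-fold rise (limma adjusted p 0.0127) that was lost without day 5 replicate 1 (0.059). PLAU, urokinase, a plasminogen activator, rose 2.05-fold at 1 of 2 probes (adjusted p 0.0268), and MMP19, a metalloproteinase with 1 control array above background, 2.23-fold (0.0418). The PLAU call was lost without control 1, control 2, day 5 replicate 1 or day 5 replicate 3 (adjusted p 0.063 to 0.094), and that on MMP19 with the slide as a block (0.057) and without any 1 array other than control 1 or day 7 replicate 2 (0.051 to 0.13). MMP9, gelatinase B, a protease of neutrophils and macrophages, had control levels of 0.09, 0.98 and 1.19 and day 5 levels of -0.88, -1.15 and -0.82. Every day 5 array lay below the lowest control, which was control 1. The fall was 3.27-fold (-1.71 ± 0.33, adjusted p 0.0233). It lost its call without control 2, control 3 or any day 5 array (adjusted p 0.056 to 0.083). In all 3 of 27 tested members rose and 1 fell, where 2.06% of all genes were called higher and 0.221% lower. Without day 5 replicate 1 the counts were 0 and 0, and without control 2 or day 5 replicate 3 they were 1 and 0.

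Among genes that set vascular tone 1 of 14 tested constrictor genes and 2 of 24 tested dilator genes were called. The share over all genes tested was 2.28%. EDN1, the constrictor peptide endothelin-1, had control levels of 0.32, 0.30 and 0.25 and day 5 levels of -0.15, -0.13 and 0.70. Its receptor EDNRA had levels of 1.34, 1.32 and 1.24 and of 1.35, 1.42 and 1.07, a change of -0.02 ± 0.15 (limma adjusted p 0.975). The groups overlapped for both genes, and EDNRB, the second endothelin receptor, had a change of -0.68 (0.386). The serotonin receptors HTR2A and HTR1B had changes of 0.79 (0.406) and -0.95 (0.399). ADRA2A, an adrenergic receptor, was the one of 14 tested constrictor genes that was called. It rose 3.54-fold from -2.97, -2.91 and -2.03 to -0.26, -0.85 and -1.33 (adjusted p 0.0395), with 2 control arrays above background, and lost its call with the slide as a block (0.064) and without control 1, control 2, day 3 replicate 1, day 5 replicate 1, day 5 replicate 2 or day 7 replicate 3 (0.052 to 0.15).

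On the dilator side NOS3, the endothelial nitric oxide synthase, had levels of 2.81, 1.72 and 2.20 in controls and of 1.48, 1.72 and 1.75 at day 5, a change of -0.60 (limma adjusted p 0.437). NOS2, the inducible synthase, had a change of 0.78 (0.123), with 2 control arrays above background. PTGS2, cyclooxygenase 2, had a change of 0.00 (0.999), from a mean of 3.04 to one of 3.04. PTGER4, a prostaglandin E2 receptor, rose 1.84-fold at 3 of 6 probes (0.0495), which is at the edge of the threshold and was lost without any 1 array other than control 3 or day 5 replicate 2 (0.053 to 0.18). It and RLN1 were the 2 of 24 tested dilator genes that were called.

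RLN1, relaxin, a peptide hormone that dilates arteries, had the largest change of all called genes and the largest spread. Its control levels were -2.27, -2.55 and 0.68 and its day 5 levels 2.08, 3.29 and 4.57. Control 3 stood about 3 units above the other controls, and the day 5 arrays spanned over 2 units, yet the groups did not overlap. The rise was 25.9-fold (4.69 ± 0.97, limma adjusted p 0.0319), seen at 3 of 4 probes with changes of 4.17 to 4.90. It lost its call without control 1, control 2, day 5 replicate 2, day 5 replicate 3 or day 7 replicate 2 (adjusted p 0.051 to 0.11) and with the 6 arrays alone (0.077). Its brightest probe is printed because the largest change rests on it.
RLN1: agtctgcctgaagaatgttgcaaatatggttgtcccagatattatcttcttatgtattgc

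The calcium and contraction machinery gave no call in 3 lists. Over all genes 2.06% were called higher and 0.221% lower, so the lack of calls in lists of this size says little. Of 28 tested contractile smooth muscle genes 23 had negative changes, with a median of -0.35 against 0.02 for all genes, and none was called. Over the scaling alternatives the median ran from -0.42 to -0.37, and it was -0.49 under normexp. TAGLN, transgelin, had levels of 7.01, 6.78 and 6.48 in controls and of 5.75, 6.18 and 6.20 at day 5, a change of -0.71 (limma adjusted p 0.0749). MYL9, the regulatory myosin light chain, had a change of -0.62 (0.0957), MYH11, smooth muscle myosin, one of -0.69 (0.306) and ACTA2 one of -0.54 (0.37). The day 5 and control arrays did not overlap for 6 of the 28 genes, TAGLN and MYL9 among them, and they overlapped for MYH11 and ACTA2. Over all genes 17.1% did not overlap, and 6.89% were lower without overlap.

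The summed linear signal of the contractile list, to which the brightest genes add most, was 1301 to 1442 in controls and 949 to 1126 at day 5, without overlap. With the slide as a block MYH11 was called, and without control 3 the count of called contractile genes was 2. With array weights it was 4. The lowest weights were 0.36 for day 5 replicate 3, 0.38 for control 3 and 0.48 for control 2. Among 39 tested ion channel and calcium handling genes CACNA1C, the L-type calcium channel, had a change of -0.69 (limma adjusted p 0.143), KCNMA1, the large-conductance potassium channel, one of -0.56 (0.422) and RYR2, the calcium release channel, one of -0.87 (0.0938). Among 27 tested calcium sensitization genes RHOA, ROCK1 and ROCK2 had changes of 0.30, 0.07 and -0.26. None of the 10 tested endothelial markers was called, with a median of -0.29, and VWF, the von Willebrand factor, and PECAM1 had changes of -0.19 and 0.07.

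**Figure D4:**
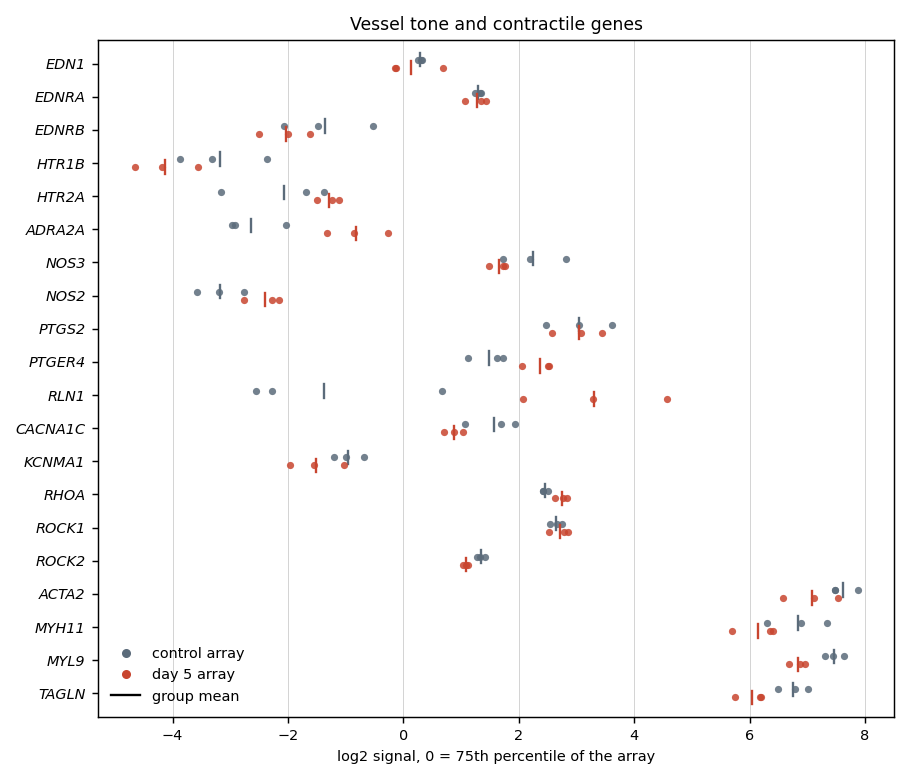
Levels on each control (grey) and day 5 (red) array for genes of vessel tone and contraction, with group means as vertical bars, on a log2 scale with 0 at the 75th percentile of the array. ADRA2A, PTGER4 and RLN1 were called, and for the endothelin and serotonin genes the points of both groups intermingle.

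Some of the largest rises belonged to genes outside these groups. CRYBA4, a beta crystallin known from the eye lens, had levels of -1.49, -2.86 and -2.31 in controls, 2 of them above background, and of 2.42, 0.74 and 2.51 at day 5. The gap between the groups exceeded 2 units. The rise was 17.3-fold at 2 of 2 probes (4.11 ± 0.47, limma adjusted p 0.00147), and the probe was designed on a transcript read from rabbit lens. SLC15A2, a peptide transporter of choroid plexus and kidney, rose 11.3-fold at 4 of 4 probes from -3.45, -3.69 and -1.58 to 0.42, 0.40 and 0.97 (adjusted p 0.00254). No SLC15A2 probe was above background on more than 2 control arrays. FOLR1, the folate receptor, also listed as a choroid plexus marker, rose 3.35-fold (adjusted p 0.00795, 2 of 3 controls above background). The summed signal of the 6 ependyma and choroid plexus markers was 7.97 to 13.4 in controls and 7.19 to 9.91 at day 5. The calls on these 3 genes held without each array.

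Of 26 tested lipid genes 4 rose, 2 of them above background on all 6 arrays and 2 through day 5 alone, with a list median of 0.44. The share called higher was 2.06% of all genes tested. ABCA6, a lipid transporter, rose 9.53-fold at 3 of 3 probes from -1.59, -2.15 and -1.82 to 1.1, 0.43 and 2.66 (limma adjusted p 0.00556). SGPL1, which degrades sphingosine-1-phosphate, rose at least 2.35-fold (adjusted p 0.00248), and APOD, an apolipoprotein of perivascular fibroblasts, rose 1.85-fold from 8.06, 8.09 and 8.23 to 9.0, 9.17 and 8.86 (0.025). The APOD call was lost without control 1, control 2, day 5 replicate 1 or day 5 replicate 2 (adjusted p 0.074 to 0.094) and with quantile normalization (0.086). The fourth was MSR1. DCSTAMP, which drives fusion of macrophages and osteoclasts, was at least 1.36-fold higher (adjusted p 0.00609), but its change turned to -0.10 with no filter and with the filter on any of the 4 groups (0.983 and 0.989). Its call was lost under normexp (0.071) and with the 6 arrays alone (0.056). Among 25 barrier transporters 2 rose, SLC15A2 and ABCC3, both admitted through day 5 alone, and 1 without control 2. ABCC3, with 1 control array above background, rose by 1.41 (0.0443), and kept the call without control 1 alone. IGF1, an insulin-like growth factor, rose 1.88-fold at 3 of 5 probes (0.0395) and kept its call without control 3 or day 5 replicate 2.

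The 16 falls were smaller and less stable than the rises. RSPO1, R-spondin 1, a secreted enhancer of Wnt signalling, had control levels of 0.98, 1.23 and 1.62 and day 5 levels of -0.71, -0.20 and -0.27. The groups were separated by over 1 unit. The fall was 3.19-fold (-1.67 ± 0.21, limma adjusted p 0.00185), and RSPO1 was the one fall called in every setting. The array describes its probe as a thrombospondin type 1 domain protein, a domain that R-spondins carry.
RSPO1: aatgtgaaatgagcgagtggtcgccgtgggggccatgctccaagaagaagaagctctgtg

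TENM1, a teneurin, a transmembrane protein of cell contacts, fell at 2 of 2 probes from -0.77, -0.66 and -1.11 to -2.38, -2.35 and -2.77 (-1.65, limma adjusted p 0.00969). It and RSPO1 were the falls that kept their call without each array in turn. PPFIBP2, a liprin, fell 2.1-fold at 5 of 5 probes (adjusted p 0.0101), a call lost without day 5 replicate 1 (0.051). LOC100347394, described as similar to keratin 72, had the largest fall, 4.2-fold (adjusted p 0.0319). It rested on a single probe above background on 1 day 5 array, and its call was lost without day 5 replicate 1 or 3 (0.12 and 0.080).

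ERBB2, a receptor tyrosine kinase of the epidermal growth factor family, fell 2.49-fold from -1.72, -2.45 and -1.02 to -3.14, -2.94 and -3.06 (limma adjusted p 0.042), with 2 control arrays above background. It lost the call with quantile normalization (0.055), under normexp (0.74), and without any 1 array other than control 2 or day 3 replicate 3 (0.056 to 0.14). FRZB, a secreted Wnt antagonist, rose 2.16-fold (adjusted p 0.0433) at 1 of 7 probes, while the others had changes of 0.93 to 1.13 and adjusted p from 0.0513 to 0.102. Its call was lost without any control, day 3 replicate 1 or 2, day 5 replicate 1 or 3, or day 7 replicate 1 (0.054 to 0.16). FRZB and RSPO1 were the 2 Wnt genes called among 24 tested, with a list median of -0.04. Over all genes 2.06% were called higher and 0.221% lower, so this count says little about Wnt genes.

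Some falls rested on one probe among several. MTHFD2, a mitochondrial folate enzyme, fell 2.29-fold at its brightest probe (limma adjusted p 0.0126), while its other 4 probes had changes of 0.16 to 0.75. PDZD2, a scaffold protein, fell 2.25-fold (adjusted p 0.021) with changes of -0.83 to -0.63 at the other 4. STAR, which carries cholesterol into mitochondria, fell 1.71-fold (0.0381), and PHGDH, the first enzyme of serine synthesis, 2.38-fold (0.0289). Under normexp the change of PHGDH turned to 0.08 (0.826), and with the mean of its probes that of MTHFD2 turned to 0.05 (0.953). The PHGDH call was lost without control 1 or 2 or any day 5 array (0.063 to 0.10), and that on STAR without any 1 array other than day 3 replicate 3 or day 7 replicate 2 or 3 (0.054 to 0.13). The MTHFD2 call was lost without day 5 replicate 1 (0.054), and that on PDZD2 without control 1 or any day 5 array (0.055 to 0.071).

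Of 10 tested phagocyte oxidase and Fc receptor genes CYBB and NCF4, both given above, were called, and of 30 tested growth factors and receptors IGF1 and ERBB2 were. The lists that follow had no called member, where 2.28% of all genes were called. Oxidative phosphorylation had a median of 0.07 over 40 tested genes, ribosomal proteins one of 0.14 over 27, the proteasome one of 0.07 over 31, and glycolysis and hypoxia one of -0.11 over 28. The immediate early and heat shock genes had a median of -0.36 over 23 tested members, 17 of them negative, and 1 rise was called without control 2. NR4A1, an immediate early transcription factor, had levels of 0.78, 0.51 and 1.36 in controls and of 0.12, -0.41 and -0.35 at day 5 (-1.1, limma adjusted p 0.21). The 16 tested unfolded protein response genes had a median of 0.31, and PDIA4, a disulfide isomerase, had a change of 0.62 (0.117).

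Day 5 was set against day 3 and day 7 by the test of the difference itself. None of the 7231 genes differed from day 3 after adjustment (0%), with 547 at an unadjusted p below 0.05, and 2 of 25932 probes did (0.00771%), both lower at day 5. Other settings gave 0 to 4 such probes without single arrays, 56 under normexp and 240 with array weights. Of these 2 probes one was the CXCL8 probe described above, with levels of -0.88, -0.96 and -1.23 at day 3 and of -2.67, -3.36 and -2.87 at day 5 (-1.94 ± 0.20, limma adjusted p 0.00901). The other is described as cholecystokinin and was near background at day 5 and in controls, with 0.88, 1.27 and 2.88 at day 3. No gene (0%) or probe (0%) differed from day 7, with 125 genes and 389 probes at an unadjusted p below 0.05.

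Of the named genes TIMP1 came nearest to a difference from day 3. Its mean was 7.41 ± 0.54 (SD, n = 3) at day 3 and 5.51 ± 0.32 at day 5, a difference of -1.90 ± 0.28 (SE) with a limma adjusted p of 0.0867. SAA3 had means of 8.91 at day 3 and 6.56 at day 5 (-2.35, adjusted p 0.212), and HP of 6.32 and 3.91 (-2.41, 0.227). For these 3 genes no day 5 array reached the lowest day 3 array. MMP9 had a mean of 0.52 ± 0.36 at day 3, -0.95 ± 0.17 at day 5 and -1.66 ± 0.58 at day 7, and its difference from day 3 did not pass (-1.47, 0.227). CD68, C1R and COL1A1 differed from day 3 by -0.28, -0.17 and 0.06 (adjusted p 0.856, 0.925 and 0.99). A difference that did not pass does not show that the days were alike.

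**Figure D5:**
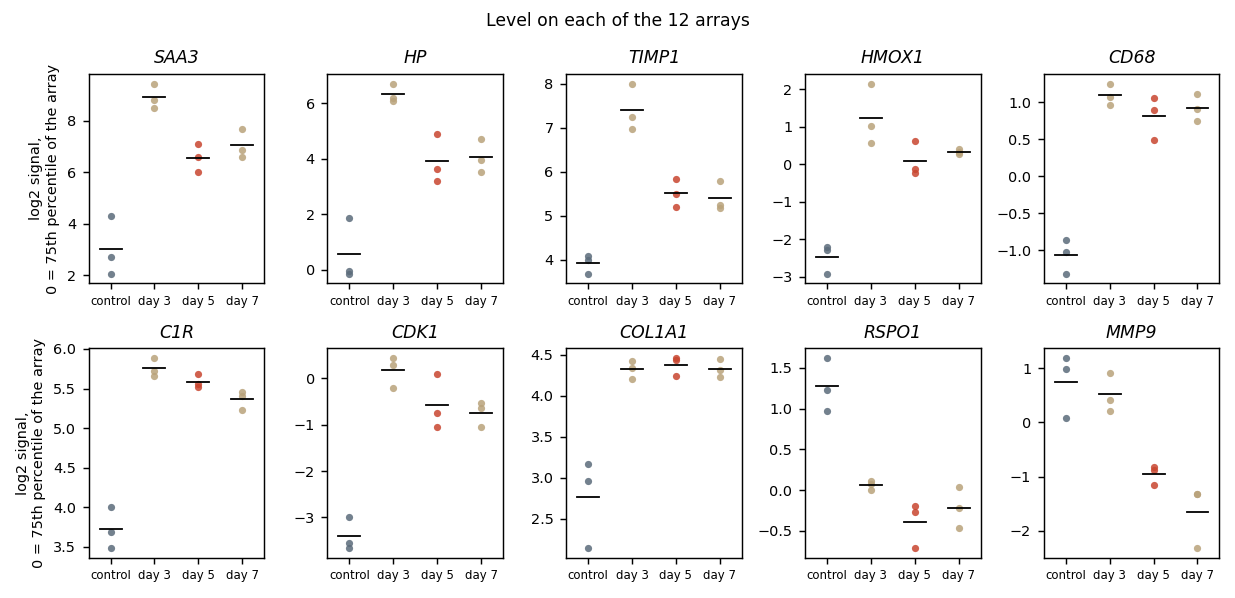
Level of 10 genes on each of the 12 arrays, with group means as horizontal bars, on a log2 scale with 0 at the 75th percentile of the array and a separate y axis for each gene. All 3 day 5 arrays (red) lie above all 3 controls (grey) for the first 8 genes and below them for RSPO1 and MMP9, and for SAA3, HP and TIMP1 they lie below the day 3 arrays.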

How the data were processed

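Each array was an Agilent single-colour design read with Feature Extraction 9.5.1.1, per the submitters' processing notes. The deposited scanner files give processed signal intensity, already background-subtracted per the file headers, and per-spot flags. The authors' deposited value table, whose columns share a median of 27.0 and correlate with the scanner values on the log2 scale at 0.994 to 1.000, is a linear table with unstated scaling and served as an alternative.

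Control spots and outlier spots were left out, spots of a probe were averaged, and log2 intensity was taken minus the 75th percentile of its array. Probes above background on all 3 arrays of the day 5 or the control group were tested with limma 3.58.1 (R 4.3.3) in 1 fit over 12 arrays with a mean per group. The number of arrays limits the precision. Of 43623 probes 22402 were matched to 1 gene, 125 to several and 21096 to none, through RefSeq's table for mOryCun1.1, used for names alone; 49 were named from the array's descriptions by a hand-written list. For 185 of the called probes there was no single gene. No genome was used here, so no positions are given. Probe sequences are those in the deposited scanner files.

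Named genes were up to 20 called rises and 20 falls of largest log2 change without overlap of the arrays, up to 5 called members of each list with the smallest p (or 2 uncalled ones), a fixed list of 37 genes, of which 29 were tested, and genes called against another day. Members of the lists beyond that rule were named after their values were seen. One list member is not reported here. The comparison and the lists were chosen with earlier results of these data known. In a simulation over the tested probes without missing values, 39% of probes changed 2-fold and 74% of those changed 4-fold were recovered. Its noise was independent between probes and arrays, with each probe's own spread. Effects shared by the probes of an array were not simulated, and recovery of genes was not measured.

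Replicate numbers follow the slides. Deviations of same-slide day 5 and control arrays correlated at 0.04, 0.09 and 0.15, and the labels do not say that a number marks a shared animal or batch, so the slide was used as a block in an alternative only. Alternatives were quantile normalization, median scaling, normexp background correction, the value table, other filters, the 6 arrays alone, the block, array weights, a trend in limma's prior, a mean over each gene's probes, outlier spots kept, and leaving out each array.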

Additional observations from a re-analysis of the deposited data

How the results depend on the processing

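Counts of calls moved with the settings, and 6 named genes changed sign in 1 or 2 of them. Counts of 541 probes (478 higher, 63 lower) and 165 genes (149 and 16) became 228 probes (195 and 33) and 79 genes (70 and 9) with normexp, 345 probes (248 and 97) and 98 genes (76 higher) with no filter on dim probes, and 303 probes (253 higher) and 98 genes (87 higher) with both groups above background. They became 246 probes (229 and 17) and 72 genes (66 and 6) with the 6 arrays alone, and 1225 probes (873 and 352) and 380 genes (252 and 128) with array weights. Without single arrays they ran from 278 to 726 probes (264 to 596 higher, 14 to 130 lower) and from 87 to 224 genes (85 to 178 and 2 to 46). Genes called lower were 25 with the mean of all probes. With the slide as a replicate block 206 genes were called, 148 of the 165 among them, and 25 were lower; ADRA2A, MMP19, OASL, PHKA2 and RRM2 were lost and LUM, MYH11, NID1, PDGFRB and TGFBR3 gained among the named genes. Probes differing from day 3 numbered 2, and 56 with normexp, 4 with no filter, 0 with both groups above background, 240 with array weights and 0 to 4 without single arrays; against day 7 the count was 0 without any 1 array. In all 42 genes were called under each of the 25 settings in which they were tested, and 67 without each array. DCSTAMP turned to -0.10 with no filter and with the filter on any of the 4 groups, MTHFD2 to 0.054 with the mean of its probes, and PFN4, PHGDH, PTK2 and SOX1 to 0.15, 0.076, 0.18 and 0.16 under normexp. The median over all probes was 0.04, and 0.10 with normexp. Dim probes limit the cell division and DNA replication results. Apart from what each alternative leaves out or changes by its construction, the cause of these shifts was not tested.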
